A study of Mus musculus with 34 samples.

Results

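The clustered protocadherin genes occupy a stretch of mouse chromosome 18 in 3 neighbouring arrays, Pcdha, Pcdhb and Pcdhg. Every region of the deposited count tables that starts in a window of 1 Mb around them was taken, whatever its values (chromosome 18, mm10, the same assembly as GRCm38). This gave 157 of 248336 regions, from 36912615 to 37887420, in the list used for H3K9me3 throughout and for H3K27ac in the repeated libraries. H3K27ac in the separate lines was counted over another list of wider regions, of which 53 of 96988 were taken. Of the 157 shared regions, 41 lay in the alpha array (18:36930184-37187661, 14 genes), 41 in the beta array (18:37264938-37524479, 22 genes) and 53 in the gamma array (18:37661793-37841873, 22 genes). The other 22 lay between or beside the arrays, where Slc25a2, Taf7 and Diaph1 are the annotated protein-coding neighbours. In that second list the corresponding numbers were 7, 1, 30 and 15.

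Clustered protocadherins are cell-surface cadherins that neurons express in different combinations, which gives each cell an identity used in self-recognition. In the alpha and gamma arrays each variable exon has its own promoter and is spliced to constant exons shared by the whole array, whereas each beta gene is a single exon. The most downstream variable exons of alpha and gamma, the C-type genes Pcdhac1, Pcdhac2, Pcdhgc3, Pcdhgc4 and Pcdhgc5, are used more evenly between neurons than the others. H3K9me3, a mark of heterochromatin, and H3K27ac, found at active promoters and enhancers, were measured here in embryonic stem cells, in which most of these genes are known to be little used.

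The series profiled both marks by ChIP-seq, with micrococcal nuclease to fragment the chromatin, in cells grown with serum, LIF and MEK and GSK3 inhibitors. In the series of separate lines, 3 C57BL/6J (B6) and 3 DBA/2J (D2) embryonic stem cell lines gave 1 library each per mark. In the series of repeated libraries, 1 line per genotype was measured repeatedly: B6, B6-13D2 (a D2 segment of chromosome 13 on a B6 background, line QJ 6-1), D2-13B6 (a B6 segment on a D2 background, line XE 2-4) and D2. The series comprised 34 libraries of 8 cell lines in 12 groups, 10 of 3 libraries and 2 of 2. The protocadherin arrays lie outside the segment, so there B6-13D2 carries the B6 background and D2-13B6 the D2 background. Repeated libraries are technical repeats of a single line, so their p-values measure the spread between repeats and compare lines, not strains. The B6 and D2 lines that were repeated are also among the separate lines, so both series are not independent samples of each strain. The H3K9me3 antibody was the same throughout, but the H3K27ac antibody came from abcam for the separate lines and from Cell Signaling for the repeats, and levels of that mark were not compared between series.

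Libraries held 1487862 to 2559262 counts for H3K9me3 and 8735674 to 18272793 for H3K27ac, of which the protocadherin stretch held 0.0497% to 0.115%. In the H3K27ac repeats, a pair of the 3 libraries of each line differed by less than sampling noise. The chi-square per degree of freedom of these pairs was 0.905 to 0.967. Such a pair was summed, and n is therefore 2 for every line. In D2, replicates 1 and 3 were summed. Replicates 2 and 3 of D2 did not differ by more than sampling noise by the chi-square test, but their 1.005 was not under 1. Replicates 1 and 2 differed by more (1.027), and replicate 2 was kept apart. Replicate 1 of D2-13B6 stood apart from its other repeats in both marks, with a chi-square per degree of freedom of 2.46 for H3K9me3, where the other pair gave 1.21. The label of embryonic stem cells was checked on H3K27ac at gene starts in the repeats. Naive stem cell markers had a median of 24.3 CPM per kb (CPM are counts scaled to the total of the tested regions, here per kilobase of region) with 10 of 10 genes covered, against 1.17 for 8 neural markers and 1.91 over all regions. The naive markers ran from 0.656 to 37.2, with 9 of 10 tested, so the lowest was below both of those medians. The 5 fibroblast markers with a region had a median of 2.3 (1.56 to 3.53), above that of all regions. The 5 endoderm or mesoderm markers with a region had a median of 1.21. In bulk ChIP-seq, a mark in fewer cells and less of it per cell cannot be told apart.

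H3K9me3 was graded over the arrays, with the most per kilobase on alpha and the least on gamma. In the separate lines the alpha regions had a median of 14.3 CPM per kb, the beta regions 8.41 and the gamma regions 5.71, against 5.36 over all 248336 regions. These medians exceeded 83.7%, 69.4% and 52.9% of all regions. The repeated libraries gave 18.2, 11.3 and 6.74 CPM per kb, against 6.09 over all regions. The order alpha, beta, gamma held in every one of the 16 H3K9me3 libraries. Their summed level in the separate lines was 13.5 to 14.9 CPM per kb for alpha, 8.22 to 9.62 for beta and 4.80 to 6.58 for gamma. In the repeats it was 13.0 to 20.5, 9.73 to 13.7 and 5.97 to 7.30. The lowest alpha value of the repeats, in replicate 2 of D2-13B6, was below the highest beta value, in replicate 1 of the same line, so across libraries the 2 ranges overlap.

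H3K27ac had the reverse order for alpha and gamma. In the repeated libraries the median was 0.664 CPM per kb for alpha, 0.651 for beta and 1.85 for gamma. The alpha and beta medians exceeded 5.84% and 5.46% of all regions and the gamma median 48.4%. The summed level of alpha was 0.885 to 1.11 CPM per kb over the 8 samples and that of gamma 4.83 to 6.93, so that gamma was higher than alpha in each. Outside the arrays the median was 4.81, which exceeded 80.8% of all regions. The separate-lines table lists few alpha and beta regions and its gamma median was 3.45 CPM per kb against 2.91 for all regions.

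**Figure D1:**
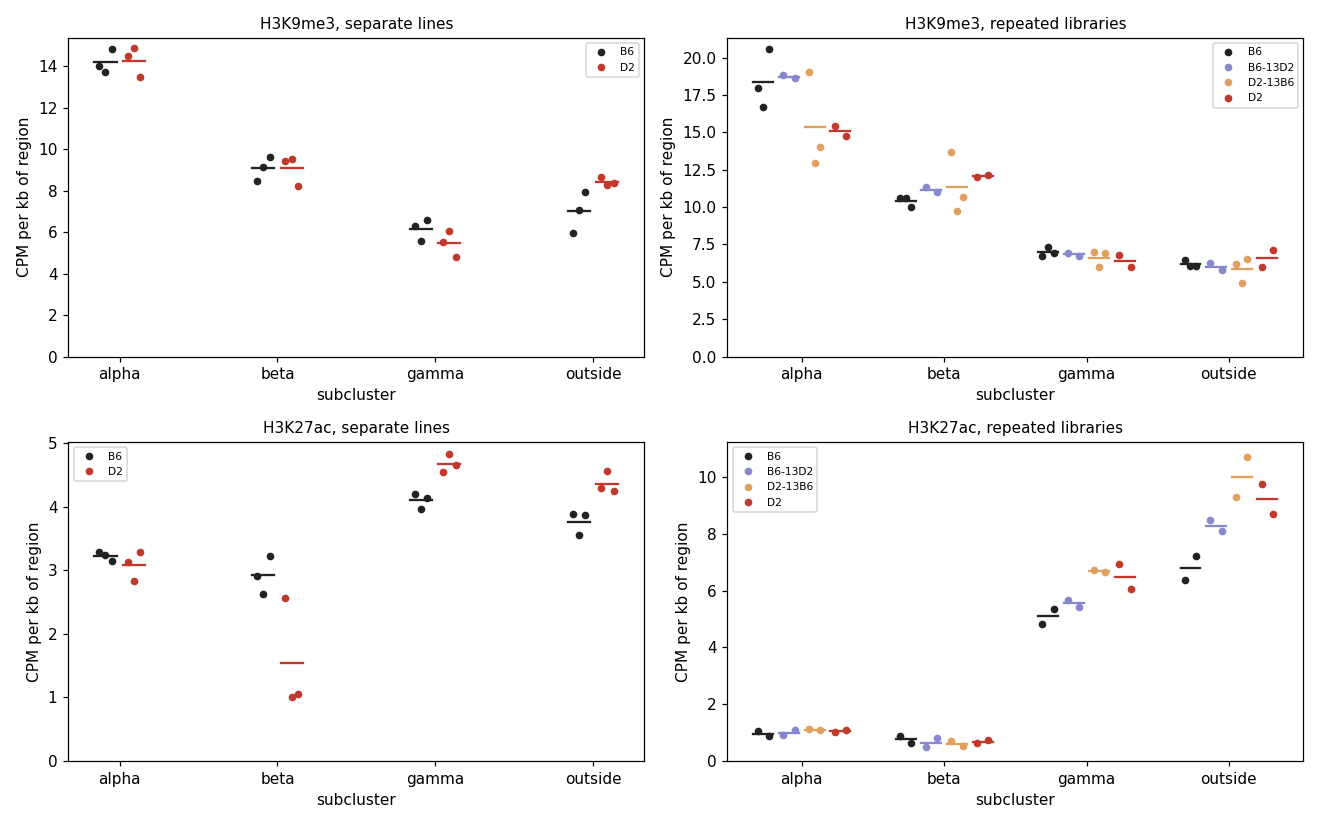
Summed level in CPM per kilobase of the alpha, beta, gamma and outside regions on the horizontal axis, with 1 panel for each of the 4 count tables. Points are libraries (samples in the H3K27ac repeats) and bars the group mean, and the alpha points are the highest for H3K9me3 while gamma and the outside regions are the highest for H3K27ac.

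In the alpha array H3K9me3 was higher on variable exons than in introns. The 31 alpha variable-exon regions had a median of 17.8 CPM per kb of H3K9me3 in the separate lines and 18.8 in the repeats, against 7.86 and 5.26 in 10 alpha introns. Their median CpG density was 4.97 per 100 bp, higher than the 3.43 of beta and the 3.75 of gamma variable exons. Pooled over the genes of an array, variable-exon regions past a gene start had a higher median than those at a start, with overlapping ranges and medians of 22.2 against 16.8 CPM per kb in alpha, 11.8 against 8.73 in beta and 10.5 against 6.57 in gamma, all in the repeats. The separate lines gave 18.9 and 14.6, 8.27 and 7.92, and 8.60 and 5.67. No test was made of these differences between regions, which share libraries and differ in base composition.

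Gene by gene, H3K9me3 in the repeats was highest on Pcdha8 to Pcdha11 when averaged over the lines. The order differed between lines. In B6-13D2 Pcdha6 (28.6 CPM per kb) exceeded Pcdha9 (27.1), Pcdha10 (24.9) and Pcdha11 (28.1). In D2-13B6 Pcdhb9 (30.1), which rests on a single short region, exceeded Pcdha9 (24). Neighbouring variable exons are similar in sequence, and how reads that match several of them were counted is not given in the sources used here, so values of single genes are uncertain to that extent. Pcdha9 averaged 26.5 CPM per kb and ranged from 18.9 to 37.0 over the 10 libraries. Pcdha8 averaged 26.4 and ranged from 13.6 to 31.4, so their order is within the spread between libraries. Pcdha11, at 26.3, and Pcdha10, at 24.7, were close to both, and Pcdha6 followed at 21.9. The last genes of the array were lower, with 10.8 for Pcdha12, 11.7 for Pcdhac1 and 7.45 for Pcdhac2. In the separate lines Pcdha8 (23.4), Pcdha6 (22.5) and Pcdha7 (21.4) led, and Pcdha12 (9.08), Pcdhac1 (6.84) and Pcdhac2 (4.77) were again among the lower alpha genes, with Pcdha2 at 7.91 and Pcdha4 at 8.33.

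The single region of highest H3K9me3 per kilobase in alpha differed between the series. In the separate lines it was 18:37042573-37043070, in an intron between the starts of Pcdha12 and Pcdhac1. In the repeats it was 18:36999168-36999498, in the Pcdha9 exon. The former had, in the separate lines, 25.4, 25 and 22.6 CPM in B6 and 18.9, 25.6 and 26.3 CPM in D2. The strains overlapped there. The Pcdha9 region reached 50.8 CPM per kb in the repeats. The alpha intron region 18:37038007-37038309 was among the highest in both marks, with 33.3 CPM per kb of H3K9me3 in the separate lines, 48.1 in the repeats and 6.34 of H3K27ac. In gamma the highest H3K9me3 was in introns, at -2486 bp from the Pcdhga8 start (50.4 CPM per kb in the separate lines and 31.5 in the repeats) and at -3685 bp from the Pcdhga6 start (30.4 and 19.8). Of the intergenic regions, 18:37629981-37630330 near Slc25a2 was high in both marks in the repeats, with 25.1 CPM per kb of H3K9me3 and 18.4 of H3K27ac.

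The beta genes were more even. Their H3K9me3 in the repeats ran from 7.99 CPM per kb on Pcdhb3 to 18.2 on Pcdhb9, and 36 variable-exon regions had a median of 11.2. Pcdhb9 rests on a single untested region of 0.21 kb and ranged from 3.26 to 38.5 over the libraries, so its place at the top is within its own spread. The highest region of the array was 18:37330005-37330386, at -3726 bp from the Pcdhb6 start, with 46.4 CPM per kb in the separate lines and 27.8 in the repeats. H3K27ac on beta genes was at most 0.954 CPM per kb in the repeats, and the 36 variable-exon regions had a median of 0.645.

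In gamma, H3K9me3 in the repeats ran from 3.03 CPM per kb on Pcdhgc5 to 13.8 on Pcdhgb7, followed by Pcdhgb4 at 13.6. The C-type genes were among the lowest, with 5.07 for Pcdhgc3 and 6.09 for Pcdhgc4, and in the separate lines all 3 were under the gamma median, at 2.24, 4.28 and 1.25. In H3K27ac in the repeats Pcdhgc5 had 6.25 CPM per kb, Pcdhga1, the first gene of the array, 5.17, Pcdhgc3 4.86, Pcdhga12 3.51 and Pcdhgc4 2.63, whereas Pcdhga9 had 0.838. The highest H3K27ac was past the variable exons, at the constant exon region 18:37823926-37828174. Its level was 88.9 and 101 CPM in B6, 93.3 and 90.8 in B6-13D2, 106 and 109 in D2-13B6 and 119 and 99.2 in D2. The lines were close, and 0 contrasts called this region.

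**Figure D2:**
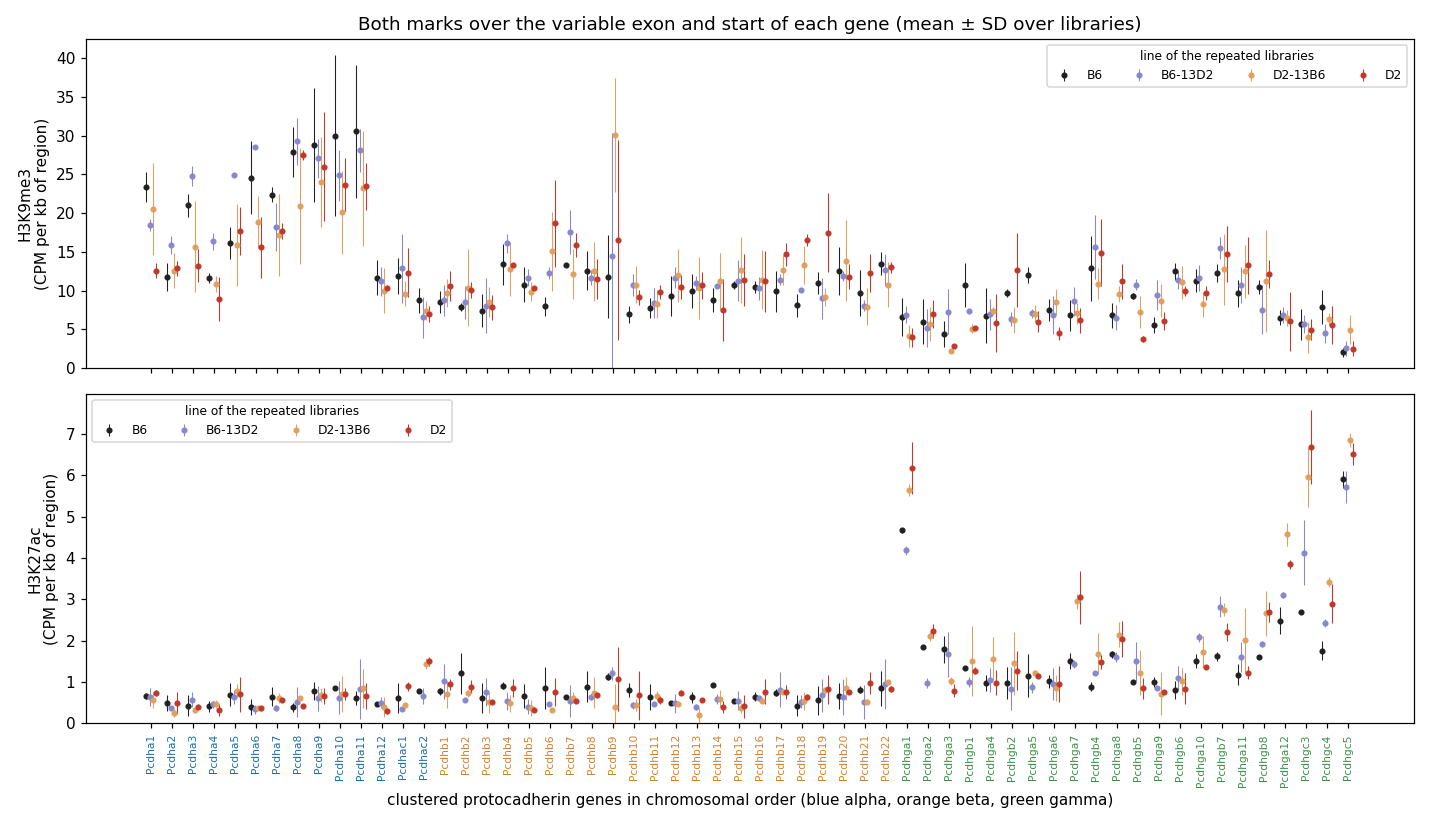
H3K9me3 in the top panel and H3K27ac in the bottom panel on the 58 genes in chromosomal order, in CPM per kilobase, as mean ± SD over the libraries or samples of each of the 4 repeated lines. Averaged over the lines, H3K9me3 is highest on Pcdha8 to Pcdha11 and is low on the gamma C-type genes, though single lines differ in this order. H3K27ac is high at Pcdhga1, Pcdhgc3 and Pcdhgc5.

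Set against each other over all regions, the 2 marks were inversely ordered. Spearman's rho between H3K9me3 and H3K27ac per kilobase over the 157 regions was -0.562 in B6, -0.551 in B6-13D2, -0.533 in D2-13B6 and -0.523 in D2. Within gamma it was -0.701, -0.549, -0.504 and -0.495 over 53 regions, and within alpha nearer 0, at -0.275, -0.129, -0.221 and -0.25 over 41. Within beta, where H3K27ac was close to the lowest level of the table, it was 0.256, 0.0242, -0.0101 and 0.271. These are descriptions across regions of the same libraries, which differ in base composition: rho of H3K9me3 with CpG density was 0.404 to 0.504 over all 157.

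**Figure D3:**
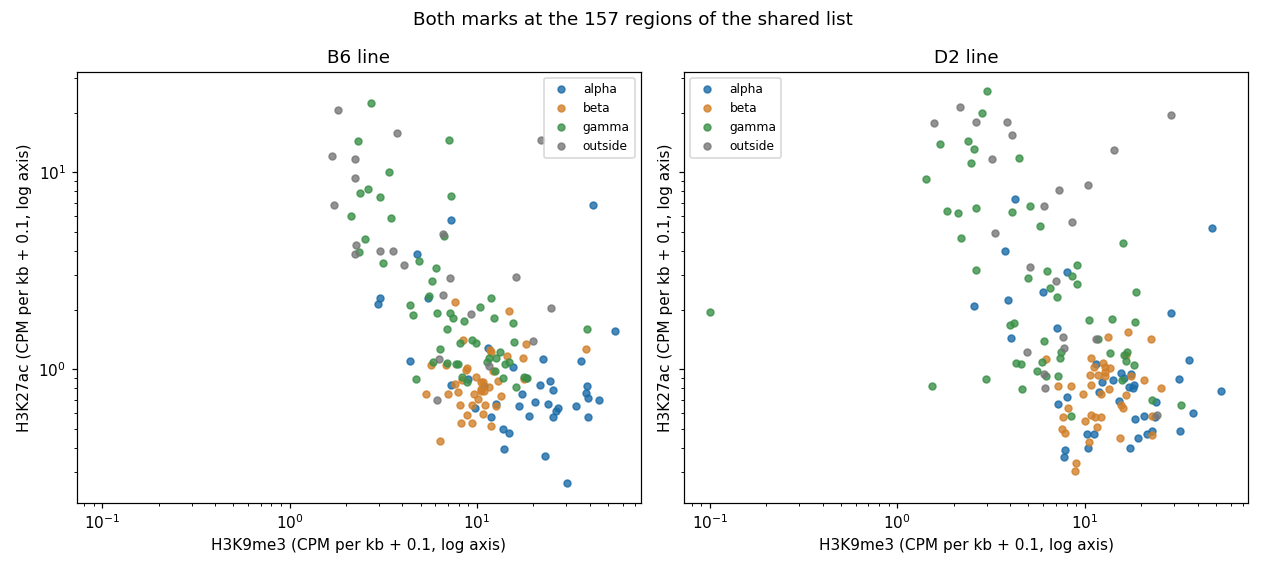
H3K27ac against H3K9me3 for the 157 regions in the repeated B6 and D2 lines, in CPM per kilobase plus 0.1 on log axes, coloured by array. Most alpha and beta regions lie at the lower right, with high H3K9me3 and low H3K27ac, and the upper left holds gamma and outside regions.

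The comparison of B6 with D2 asked how far the strains differ in each mark. For H3K27ac in the separate lines, 26 of 53 regions tested were called with an adjusted p under 0.05, as were 49.3% of all regions, so the share was that of the table. By direction, 22 were higher in D2 and 4 lower, while all regions gave 24.3% and 25%. The gamma array held 15 of the 22, with 15 of its 30 regions called, all higher in D2, and a median log2 fold change of 0.38 against -0.01 over all regions. With library totals in place of TMM factors 14 gamma regions were called, all higher, and with DESeq2 9, all higher. Gamma summed to 377, 356 and 372 CPM in the B6 lines and 408, 433 and 418 CPM in the D2 lines, so every D2 line was above every B6 line. Alpha summed to 21.2 ± 0.498 CPM over the B6 lines and 20.3 ± 1.51 over the D2 lines (SD, n = 3), a difference within the spread. Markers of other cell types were read beside these values. Of 6 fibroblast markers, the 2 with a region summed to 2.41 to 2.58 CPM in B6 and 2.38 to 3.92 in D2, with 0 called. The 6 of 8 neural markers with a region summed to 32.7 to 35.6 and 41.0 to 43.5 CPM, with 2 called higher in D2. The 4 of 7 endoderm or mesoderm markers with a region summed to 31.7 to 36.5 and 36.4 to 36.9 CPM, with Mixl1 called higher (0.83). The part of these lists in the gamma result was not tested.

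Named gamma genes differed by modest folds. At Pcdhga7 (18:37714451-37715794), one of the variable exons in the middle of the array, H3K27ac was 3.71, 3.72 and 3.99 CPM in B6 and 7.83, 6.18 and 6.34 in D2. The strains did not overlap, with a log2 fold change of 0.83 ± 0.15 (SE, adjusted p = 6.41e-06, edgeR), and the call held in 11 of 11 alternatives. At Pcdhgc3, whose region (18:37797982-37809536) spans the gene start and upstream intron, the levels were 40.3, 39.1 and 41.6 against 46.4, 58.7 and 52.7 CPM. D2 was higher by 0.38 ± 0.08 (adjusted p = 3.45e-05, edgeR). At the Pcdhgc4 start the levels were 9.70, 11.4 and 10.2 against 13.9, 14.2 and 13.8 CPM, a log2 fold change of 0.42 ± 0.10 (adjusted p = 0.000668, edgeR).

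A region further into the Pcdhgc4 exon (18:37817028-37817574) had the largest gamma fold of this comparison, 1.12 ± 0.34 (adjusted p = 0.00453, edgeR), from 0.733 to 1.60 CPM. It was not called without replicate 2 of D2, where its adjusted p was 0.0604. Pcdhgc5 was called with 0.39 ± 0.13 (adjusted p = 0.0125, edgeR). Pcdhgb8 (0.58), Pcdhga4 (0.59), Pcdhga2 (0.54), Pcdhgb7 (0.51), Pcdhga9 (0.49), Pcdhga5 (0.45) and Pcdhga1 (0.37) were higher in D2 at their starts, and Pcdhgb2 (0.66) within its exon, as log2 fold changes. A narrow region over the Pcdhga12 start was higher by 0.63, and the wider region beside it (18:37765832-37774358), which holds most of the signal of that gene, was not called (0.10, adjusted p = 0.235). Of these, Pcdhga5 was lost in 9 of 11 alternatives, among them without any of the 3 B6 libraries and without D2 replicate 2 or 3. Pcdhga9 was lost without B6 replicate 2 or 3 and D2 replicate 2, and the narrow Pcdhga12 region without B6 replicate 1 or 3 and D2 replicate 2. The Pcdhgc5 call was lost without B6 replicate 2, and each of these calls was lost under DESeq2. The call of Pcdhgb2 was lost in 5 of 11 alternatives, which were DESeq2 and the fits without B6 replicate 2 or 3 or without D2 replicate 1 or 3. In beta the only region, 18:37280988-37281537 upstream of Pcdhb2, was called lower in D2 with a log2 fold change of -0.95 (adjusted p = 0.0167), with 1.6, 1.45 and 1.77 CPM in B6 and 1.41, 0.551 and 0.576 in D2, and was lost under DESeq2 and without D2 replicate 2 or 3. In alpha the only call was the intron region 18:37037427-37038341 (-0.48, adjusted p = 0.044), lost in 5 of 11 alternatives, among them without B6 replicate 1 or 2 and without D2 replicate 1 or 2.

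**Figure D4:**
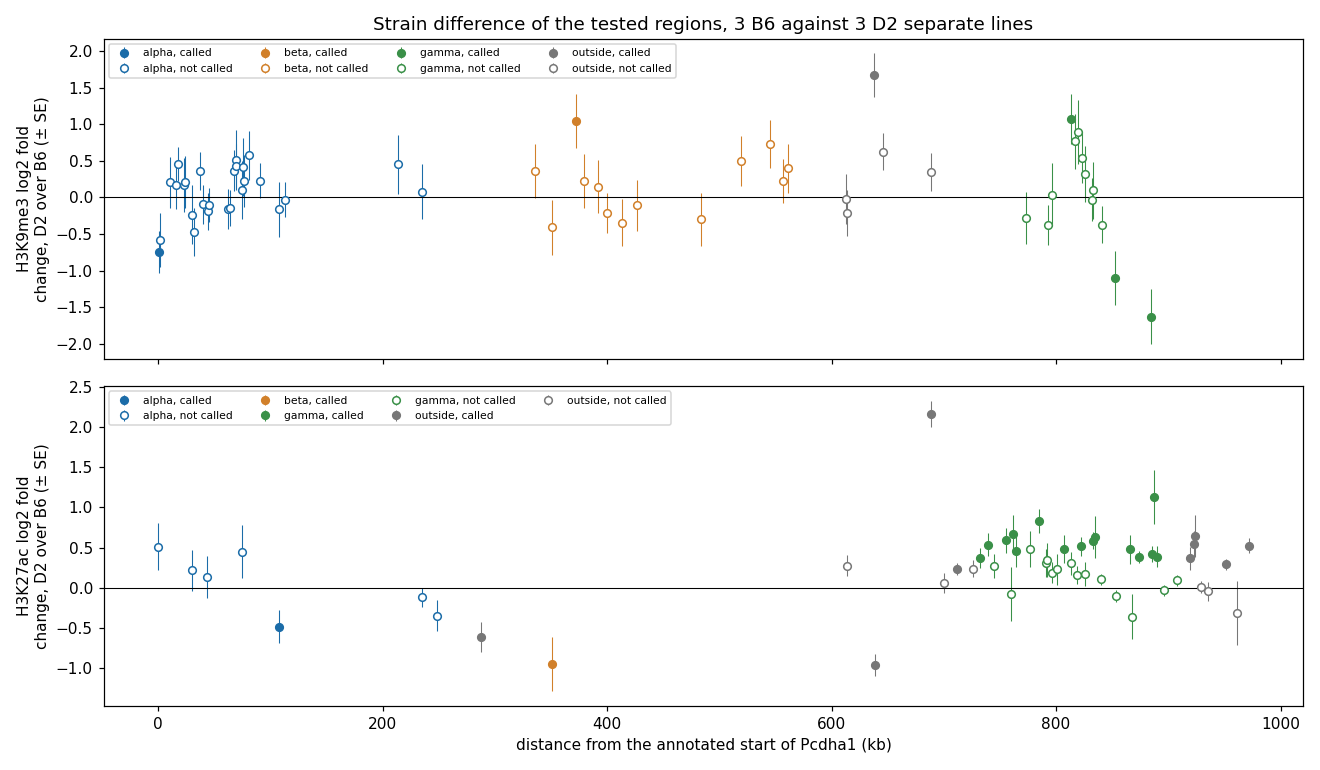
Log2 fold change ± SE of D2 over B6 in the separate lines for the regions tested, H3K9me3 above and H3K27ac below, against the distance in kilobases from the Pcdha1 start. Filled points have an adjusted p under 0.05, and the filled H3K27ac points of gamma all lie above 0.

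In the repeats, 3 contrasts set a line of D2 background against one of B6 background: D2 against B6, D2 against B6-13D2 (both with the D2 segment) and D2-13B6 against B6 (both with the B6 segment). They share samples, so their values are given side by side and are not separate evidence. Of 104 regions tested, D2 against B6 called 25 (28.1% of all regions), 19 higher and 6 lower, with 14.7% and 13.4% of all regions in those directions. D2 against B6-13D2 called 17 (26.1%), 14 higher and 3 lower (13.1% in each direction), and D2-13B6 against B6 called 23 (30.3%), 22 higher and 1 lower (17.2% and 13.1%). With library totals the splits were 15 and 7, 14 and 5, and 17 and 7. That scaling moved the median of all regions by -0.15, -0.01 and -0.20 on the log2 scale. In gamma, of 46 regions tested, 12 were called in D2 against B6 (11 higher, 1 lower), 11 in D2 against B6-13D2 (9 and 2) and 11 in D2-13B6 against B6 (11 and 0). With library totals they were 8 higher and 2 lower, 10 and 3, and 10 and 1, and with DESeq2 7 and 0, 4 and 1, and 7 and 0. The gamma medians were 0.17, 0.22 and 0.33, and 0.02, 0.21 and 0.13 with library totals. Without replicate 3 of B6, 15 of the 104 were called in D2 against B6, and without replicate 2 of B6-13D2 10 in D2 against B6-13D2.

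Summed over gamma, H3K27ac was 275 and 305 CPM in B6, 323 and 309 in B6-13D2, 382 and 378 in D2-13B6 and 394 and 345 in D2. Both lines of D2 background were above both of B6 background. Summed over alpha it was 32.2 ± 3.73, 33.3 ± 4.71, 36.6 ± 0.584 and 35.6 ± 1.91 CPM (mean ± SD, n = 2). D2 overlapped both lines of B6 background, and D2-13B6 was above both B6 samples and overlapped B6-13D2. Markers of other cell types also differed between the lines. H3K27ac at 5 of 6 fibroblast markers (Col3a1 had no region) summed to 9.41 to 11.4 CPM in B6, 18.2 to 21.1 in B6-13D2, 16.9 to 31.7 in D2-13B6 and 29.4 to 33.1 in D2, and 5 of 5 were called higher in D2 than in B6. The 8 neural markers summed to 17.1 to 18.3, 20.9 to 21.6, 27.4 to 31.1 and 30.6 to 32.9 CPM, with 2 of 7 tested called higher in D2. The 5 of 7 endoderm or mesoderm markers with a region summed to 13.9 to 18.1, 12.2 to 17.0, 19.98 to 23.1 and 19.7 to 22.1 CPM, with 0 of 5 called. The naive stem cell markers summed to 978 to 1095, 1180 to 1254, 1261 to 1301 and 1187 to 1299 CPM, with 4 of 9 tested called higher in D2. No marker region was at 0, and the part of these differences in the gamma result was not tested.

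The largest fold between D2 and B6 among the gamma calls was at Pcdhgc3, the first C-type gene of the array. At its start (18:37805777-37807996), H3K27ac was 6.07 and 5.94 CPM in B6, 10.4 and 7.94 in B6-13D2, 12.1 and 14.3 in D2-13B6 and 16.2 and 13.4 in D2. The lines were ordered with the B6 line lowest, and B6-13D2 lay between it and the D2 backgrounds. D2 exceeded B6 by 1.32 ± 0.18 (log2, SE, adjusted p = 9.72e-08, edgeR), D2-13B6 exceeded B6 by 1.15 (adjusted p = 1.69e-06) and D2 exceeded B6-13D2 by 0.68 (adjusted p = 0.00129), the last lost without replicate 2 of B6-13D2. The first was 1.17 to 1.47 over 12 alternatives and the second 0.946 to 1.30 over 12, and both kept their calls in each. For the second, the fit without replicate 1 of D2-13B6 left a single summed sample of that line. Its spread came only from the other lines. H3K9me3 at this start was not called in any contrast, with 17.4, 11.4 and 8.84 CPM in B6 and 8.95 and 13.2 in D2.

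An intron region at -5374 bp from the Pcdhgc3 start (18:37800665-37801315) had the same order, with 3.16 and 4.37 CPM in B6, 5.35 and 5.63 in B6-13D2, 9.66 and 8.88 in D2-13B6 and 9.23 and 7.84 in D2. D2 exceeded B6 there by 1.27 ± 0.21 (adjusted p = 4.37e-06, edgeR), in 12 of 12 alternatives. The last constant exon (18:37839872-37843326), named after its values were seen, held 27.1 and 26.7 CPM in B6, 35.1 and 32.6 in B6-13D2, 46.7 and 47.3 in D2-13B6 and 53.4 and 45.7 in D2. Its log2 fold change in D2 over B6 was 0.89 ± 0.13 (adjusted p = 6.37e-07, edgeR). The overlapping, wider region of the separate lines differed by 0.09 and was not called.

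At the Pcdhgc4 start (18:37813720-37816017) H3K27ac was 4.51 and 3.36 CPM in B6, 5.96 and 5.35 in B6-13D2, 7.32 and 8.27 in D2-13B6 and 7.45 and 5.46 in D2, and D2 exceeded B6 by 0.70 ± 0.21 (adjusted p = 0.0104, edgeR). At Pcdhga7 it was 2.01 and 1.68, 1.68 and 1.85, 3.76 and 3.44, and 4.28 and 3.18 CPM in the same order of lines. Both D2 backgrounds were above both B6 backgrounds, and the log2 fold change of D2 over B6 was 1.02 ± 0.27 (adjusted p = 0.00281, edgeR). Pcdhgb8 was higher in D2 than in B6 by 1.1 (adjusted p = 0.00172) in 12 of 12 alternatives. In the opposite direction Pcdhga3 was lower in D2 than in B6 by a log2 fold change of -1.05 (adjusted p = 0.0247), lost under DESeq2 and without B6 replicate 3 or D2 replicate 2. In the separate lines Pcdhga3 went the other way and was not called (0.27, adjusted p = 0.120, edgeR). It held 2.82 to 2.97 CPM per kb in B6 there and 3.36 to 3.73 in D2. The Pcdhgc4 call was lost under DESeq2 and without B6 replicate 3.

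In D2 against B6-13D2 the gamma calls of largest fold went both ways. The Pcdhgb7 exon (18:37752120-37752790) was lower in D2, with a log2 fold change of -1.33 (adjusted p = 0.00568, edgeR), lost under DESeq2 and without D2 replicate 2. The region at -1840 bp from the Pcdhga2 start was higher in D2 (1.28, adjusted p = 0.0229), lost under DESeq2 and without B6-13D2 replicate 2 or D2 replicate 1 or 2. The Pcdhga2 start was higher by 1.23 (adjusted p = 0.000779), in 12 of 12 alternatives. It held 1.26 and 1.48 CPM in B6-13D2 and 3.28 and 2.96 in D2.

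Alpha and beta had few H3K27ac calls in the repeats. Of 19 alpha regions tested, D2 against B6 called 1 (28.1% of all regions were called), at the start of Pcdhac2 (18:37143154-37145012), the last alpha gene. Its level was 1.5 and 1.46 CPM in B6, 0.978 and 1.48 in B6-13D2, 2.85 and 2.50 in D2-13B6 and 2.67 and 2.96 in D2. The D2 backgrounds were higher in each sample. D2 exceeded B6-13D2 by 1.25 (adjusted p = 0.00153, edgeR) in 12 of 12 alternatives. D2 exceeded B6 by 0.90 ± 0.30 (adjusted p = 0.0205, edgeR), a call lost in 6 of 12, among them without B6 replicate 2 or 3, without D2 replicate 2 or 3 and with library totals. D2-13B6 exceeded B6 by 0.82 (adjusted p = 0.0330), also lost in 6 of 12, among them without B6 replicate 2 or 3 and without D2-13B6 replicate 2. The start of Pcdhac1 was called higher in D2 than in B6-13D2 (1.66, adjusted p = 0.0373) at no more than 1.02 CPM, and was lost with library totals and without replicate 2 of either line. The alpha intron region of highest H3K27ac, 18:37164944-37166114, 22026 bp past the Pcdhac2 start, was higher in D2-13B6 than in B6 (0.60, adjusted p = 0.0098), a call lost with library totals and without replicate 3 of B6. In beta, 2 of 19 regions were lower in D2 than in B6: 18:37280647-37281150, upstream of Pcdhb2 (-1.88, adjusted p = 0.0132), and the Pcdhb14 exon (-1.33, adjusted p = 0.0288), both at no more than 1.25 CPM. The Pcdhb14 call was lost without B6 replicate 2 or 3 and without D2 replicate 1 or 3.

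The largest H3K27ac difference of the whole stretch lay between beta and gamma. Region 18:37618532-37619150 is intergenic, 19904 bp from the start of Slc25a2, a mitochondrial ornithine carrier gene. In the repeats it held 1.5 and 0.896 CPM in B6, 1.07 and 1.48 in B6-13D2, 10.1 and 7.77 in D2-13B6 and 8.17 and 7.73 in D2. The lines split by background without overlap. The log2 fold change was 2.61 ± 0.26 in D2 over B6 (adjusted p = 4.45e-11), 2.71 in D2 over B6-13D2 and 2.74 in D2-13B6 over B6 (edgeR). For the separate lines the overlapping region 18:37617434-37619983 held 1.66, 2.2 and 2.15 CPM in B6 and 9.57, 9.76 and 7.49 in D2, a log2 fold change of 2.16 ± 0.16 (adjusted p = 1.52e-16, edgeR). These calls held in 12 of 12 alternatives per contrast of the repeats and 11 of 11 of the separate lines. H3K9me3 at the same place did not keep a direction between the series. It was 18, 20.7 and 17.4 CPM in the B6 lines and 23.0, 18.7 and 30.1 in the D2 lines (0.34, adjusted p = 0.331). In the repeats it averaged 15.3 CPM in B6, 14.6 in B6-13D2, 7.41 in D2-13B6 and 8.80 in D2, with D2-13B6 against B6 called (-1.02 ± 0.33, adjusted p = 0.0157, edgeR). That call was lost in 4 of 10 alternatives, among them without B6 replicate 1 or 2 and without D2-13B6 replicate 3.

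Another intergenic region, 50506 bp past the Pcdhb22 start (18:37567678-37569075), differed in the opposite way. In the separate lines H3K9me3 was 5.28, 10.9 and 11.3 CPM in B6, from 5 to 11 counts, and 28.0, 34.9 and 24.1 in D2. D2 was higher in every line, by 1.67 ± 0.30 (adjusted p = 2.07e-05, edgeR), in 11 of 11 alternatives. H3K27ac over the overlapping region, named after its values were seen, was 10.4, 8.50 and 9.05 CPM in B6 and 5.72, 4.25 and 4.5 in D2, lower in D2 by a log2 fold change of -0.96 ± 0.14 (adjusted p = 3.96e-08, edgeR). In the repeats H3K27ac was again lower in D2 than in B6 (-0.71, adjusted p = 0.0454, lost in 5 of 12 alternatives, among them without B6 replicate 2 or 3 and without D2 replicate 2) and than in B6-13D2 (-1.35, adjusted p = 3.79e-05), with 3.06 and 3.36, 5.31 and 4.43, 2.44 and 2.61, and 2.00 and 1.82 CPM in the 4 lines. H3K9me3 in the repeats averaged 9.09, 6.13, 11.2 and 10.6 CPM, and no contrast called it.

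The neighbouring genes held H3K27ac at their starts. At the region of the separate lines that covers the starts of Slc25a2 and Taf7, a subunit of the general transcription factor TFIID, the levels were 40.1, 38.6 and 35.6 CPM in B6 and 45.7, 44.8 and 44.0 in D2. D2 was higher by 0.23 ± 0.07 (log2, SE, adjusted p = 0.00723, edgeR), a call lost without B6 replicate 3. In the repeats the Taf7 start had the highest level outside the arrays, 20.8 CPM per kb.

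**Figure D5:**
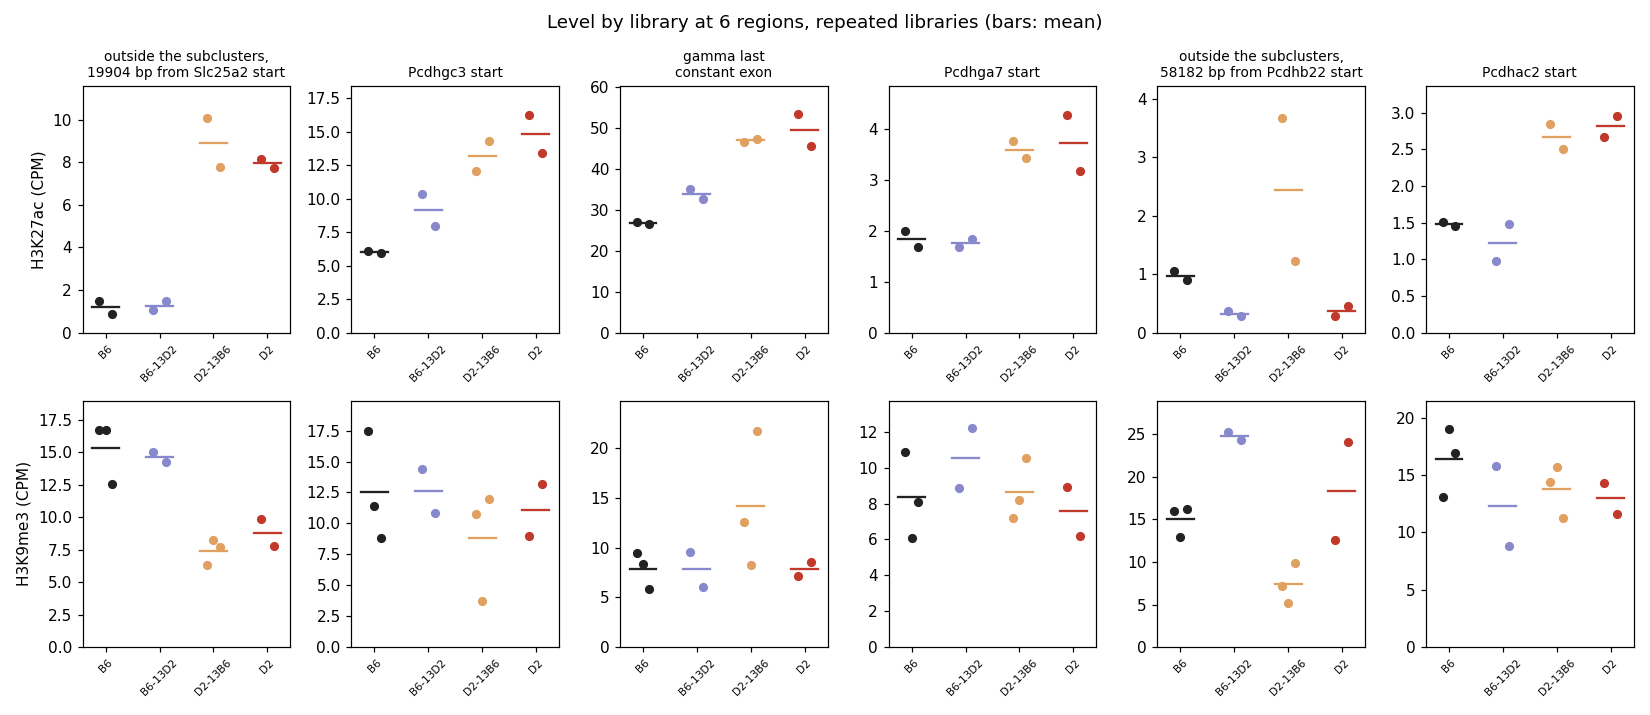
CPM by library (sample for the H3K27ac repeats) at 6 regions, H3K27ac in the top row and H3K9me3 in the bottom row, for the 4 repeated lines. H3K27ac splits by background at the intergenic region near Slc25a2 and at Pcdhga7, and B6-13D2 lies between B6 and the D2 backgrounds at Pcdhgc3.

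For H3K9me3 in the separate lines, 6 of 58 regions tested were called, 3 in each direction, against 34.7% of all regions (17.3% higher, 17.4% lower). With library totals 9 were called, 7 higher and 2 lower in D2, and that scaling moved the median of all regions by 0.16. Without replicate 3 of B6, 3 were called. The tested regions held 9.17 to 31.8 counts per library on average. Alpha summed to 474 ± 19.2 CPM over the B6 lines and 477 ± 24.3 over the D2 lines, that of beta 286 ± 18.2 and 286 ± 23.3, and that of gamma 350 ± 29.4 and 311 ± 36.5 (mean ± SD, n = 3). The alpha and beta differences were smaller than these SDs, and the gamma difference was not, although gamma ranged from 318 to 374 CPM in B6 and from 273 to 346 in D2, which overlap.

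The most stable H3K9me3 call within an array was at the Pcdhgc4 start. The separate lines held 18, 14.1 and 13.3 CPM in B6, from 13 to 17 counts, and 4.94, 5.61 and 3.76 in D2, from 5 to 9 counts. D2 was lower in every line, by a log2 fold change of -1.63 ± 0.37 (adjusted p = 0.000566, edgeR), in 10 of 10 alternatives, and H3K27ac was higher there as given above. In the repeats the same start held 13.8, 23.6 and 13.3 CPM in B6 and 17.0 and 5.43 in D2, which overlapped, and the contrast was not called (-0.63, adjusted p = 0.276). The intron region 18:37781912-37783121, 16936 bp past the Pcdhga12 start, was lower in D2 in both series. It had 11.6, 14.1 and 13.3 against 6.58, 4.99 and 6.77 CPM in the separate lines (-1.1 ± 0.37, adjusted p = 0.0168, edgeR). That call was lost in 4 of 10 alternatives, which were DESeq2, no filter and the fits without B6 replicate 2 or D2 replicate 2. In the repeats it had 7.26, 9.89 and 8.84 CPM in B6, 8.21 and 10.2 in B6-13D2, 0.899, 6.72 and 7.02 in D2-13B6 and 2.69 and 1.55 in D2. D2 was called lower than B6 (adjusted p = 0.0152, edgeR), with no fold given because no D2 library held more than 3 counts, and not without D2 replicate 2.

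The other 3 calls of the separate lines were each lost without some single libraries. The Pcdha1 start was lower in D2 (-0.75, adjusted p = 0.0370), lost in 8 of 10 alternatives, including without B6 replicate 1 or 3 and without replicate 1, 2 or 3 of D2. An exonic region of Pcdhb3 was higher (1.05, adjusted p = 0.0233), lost in 6 of 10, including without B6 replicate 1 or 3 and without D2 replicate 2 or 3. An exonic region of Pcdhgb6 was higher (1.07, adjusted p = 0.0133), lost in 3 of 10, including without B6 replicate 2 or 3. Each had 3 lines of one strain above the 3 of the other.

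In the repeats, D2 against B6 called 5 of 112 H3K9me3 regions tested (11.3% of all regions), 2 higher and 3 lower (4.58% and 6.76%). D2 against B6-13D2 called 6 (8.22%), 0 higher and 6 lower (2.86% and 5.37%). D2-13B6 against B6 called 11 (20.9%), 3 higher and 8 lower (8.75% and 12.2%), or 5 higher and 4 lower of 9 with library totals, which moved the median of all regions by 0.12. The counts fell to 1 and 0 without replicate 2 of D2, and to 4 without replicate 1 of B6. Other libraries whose omission moved them past 1.5 times were B6 replicates 2 and 3 and D2 replicate 1 (3 each) for the first, B6-13D2 replicates 1 and 2 (2 and 3) for the second, and B6 replicates 2 and 3 and D2-13B6 replicates 2 and 3 (6, 6, 5 and 6) for the third.

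The 4 alpha calls of D2 against B6-13D2 were all lower in D2. At the Pcdha3 start (18:36945932-36946819) H3K9me3 was 20.5 and 14.2 CPM in B6-13D2 and 7.16 and 5.43 in D2, a log2 fold change of -1.46 ± 0.42 (adjusted p = 0.0122, edgeR). B6, at 12.4, 15.2 and 11.8, and D2-13B6, at 16.2, 9.71 and 9.13, overlapped each other and B6-13D2, and were above both D2 libraries. Within the Pcdha4 exon the change was -1.29 (adjusted p = 0.00932), at the Pcdha6 start -1.17 (adjusted p = 0.0171), and at an intron region at -2768 bp from the Pcdha5 start -2.14 (adjusted p = 0.0223). All 4 were lost without replicate 2 of D2 and without replicate 1 of B6-13D2. In the Pcdha1 exon (18:36931425-36931818) D2 held 4.48 and 7.76 CPM and B6 13.8, 17.5 and 21.4, a log2 fold change of -1.48 ± 0.39 (adjusted p = 0.00450, edgeR), lost under DESeq2 and without replicate 1 of D2. D2 also stood below D2-13B6 there (-1.4, adjusted p = 0.0339, edgeR), a call lost in 7 of 9 alternatives, among them DESeq2, the replicate block, without D2-13B6 replicate 1 or 3 and without either D2 replicate. Between D2-13B6 and B6, Pcdha11 (-1.04, adjusted p = 0.0157) and Pcdha8 (-0.79, adjusted p = 0.0246) were lower at their starts in D2-13B6, and both calls were lost under DESeq2 and without D2-13B6 replicate 2 or 3. The Pcdha11 call was also lost without B6 replicate 3, and the Pcdha8 call without B6 replicate 1, with library totals and under a filter at 20 counts on average. Summed over alpha H3K9me3 was 600, 557 and 687 CPM in B6, 629 and 623 in B6-13D2, 637, 434 and 468 in D2-13B6 and 515 and 493 in D2. Both D2 libraries were below every library of B6 and B6-13D2, and the range of D2-13B6 overlapped those of the other lines. Without replicate 1, D2-13B6 was below each library of the other lines.

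Beta and gamma H3K9me3 calls in the repeats went both ways. The region upstream of Pcdhb6 with the highest beta level was lower in D2-13B6 than in B6 (-1.34 ± 0.36, adjusted p = 0.00276, edgeR), with 8.99, 4.48 and 4.21 CPM against 14.5, 17.5 and 11.8, and lost its call only under DESeq2. Pcdhb18 was higher in D2 than in B6 (1.02, adjusted p = 0.0210), lost in 6 of 10 alternatives, among them without B6 replicate 1 or 2 and without either D2 replicate. At the Pcdhgb7 start D2 was higher than B6 (1.52, adjusted p = 0.0192), lost in 6 of 9, among them without B6 replicate 3 and without either D2 replicate. D2-13B6 was also higher than B6 there (1.31, adjusted p = 0.0206), lost in 6 of 10, among them without B6 replicate 2 or 3 and without D2-13B6 replicate 1 or 2. H3K27ac at the same start was higher too, in D2 (0.90, adjusted p = 0.0161) and in D2-13B6 (1.00, adjusted p = 0.00606), the former lost in 5 of 12, among them without B6 replicate 2 or 3 and without D2 replicate 3, and the latter without B6 replicate 2 and under DESeq2. At the Pcdhgb5 start, D2 held 1.79 and 0.776 CPM, from at most 3 counts, and B6 4.36, 7.61 and 8.84, and D2 was called lower (adjusted p = 0.0190, edgeR), with no fold given. It was lost without B6 replicate 2 or 3 and without D2 replicate 2. Against B6-13D2 that start and the Pcdhga12 intron region above were likewise called lower in D2 (adjusted p = 0.00961 and 0.0193, edgeR), both lost without D2 replicate 2 and the latter also without B6-13D2 replicate 2. Against B6, D2-13B6 was higher at Pcdhga8 (1.17) and Pcdhga9 (1.34) and lower at Pcdhgb1 (-1.38) and Pcdhga10 (-1.03) as log2 fold changes. Each was tested in 8 or 10 alternatives. Pcdhga8 was lost in 3, among them without B6 replicate 2, and Pcdhga9 in 6, among them without replicate 1 or 2 of either line. Pcdhgb1 was lost in 4, among them without D2-13B6 replicate 2 or 3, and Pcdhga10 in 8, among them without any single one of the 6 libraries.

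The contrasts within a background asked whether the arrays differ between lines with and without the exchanged chromosome 13 segment. B6-13D2 against B6 called 0 of 112 H3K9me3 regions by edgeR, against 1.69% of all regions (1.23% higher, 0.458% lower), with 9 at an unadjusted p under 0.05, and DESeq2 also called 0, with 1 under that level. In the D2 background 2 were called (2.2% of all regions), 1 in each direction (1.81% higher, 0.395% lower). DESeq2 called 0, as did edgeR without replicate 2 of D2, and 1 was called without replicate 1, 2 or 3 of D2-13B6 or without replicate 1 of D2. For H3K27ac, B6-13D2 against B6 called 10 of 104 (13% of all regions), 7 higher and 3 lower (7.6% and 5.4%), or 5 and 5 with library totals, which moved the median of all regions by -0.14. Without replicate 3 of B6 or replicate 2 of B6-13D2, 5 were called. D2 against D2-13B6 called 1 (6.67%), lower (5.24%, against 1.44% higher), and 2 or 3 without single libraries, namely 2 without D2-13B6 replicate 1 or D2 replicate 3 and 3 without D2-13B6 replicate 2. The interaction called 0 of the H3K9me3 regions (0.389% of all regions, 0.0737% higher and 0.315% lower), with 9 at an unadjusted p under 0.05 by edgeR, and 0 and 3 by DESeq2. For H3K27ac it called 4 (5.3%), 3 higher and 1 lower (3.93% and 1.37%), with 15 called when D2-13B6 replicate 1 was left out and 1 when B6 replicate 3 or D2 replicate 2 was.

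The H3K27ac calls in the B6 background included 4 in gamma and 5 outside the arrays. In the same contrast 2 of 5 fibroblast markers, Col1a2 (1.43) and Prrx1 (0.90), and 1 of 7 neural markers, Tubb3 (0.89), were called higher, and their part in these calls was not tested. Pcdhgc3 was higher with the segment by 0.64 ± 0.18 (adjusted p = 0.0150, edgeR), a call lost in 3 of 12 alternatives, which were DESeq2 and the fits without B6 replicate 1 or 3. The largest gamma folds were at the Pcdhgb7 exon (18:37752120-37752790), higher by 1.45 (adjusted p = 0.00572, edgeR) and lost without B6 replicate 3, and at the region -1840 bp from the Pcdhga2 start, lower with a log2 fold change of -1.45 (adjusted p = 0.0138) and lost without B6 replicate 3 or B6-13D2 replicate 2. DESeq2 called 0 of these 4 gamma regions and gave no adjusted p for these 2. At Pcdhgc3 the contrast in the D2 background was 0.17 and not called. The interaction, defined as the B6-background contrast minus the other, did not call Pcdhgc3 either. The Pcdhga2 start was lower (-0.93, adjusted p = 0.0259), with 2.56 and 2.58 CPM in B6 and 1.26 and 1.48 in B6-13D2, lost without B6 replicate 3 and without B6-13D2 replicate 1 or 2. All 5 outside calls lay within Diaph1, a formin gene, and were higher with the segment, and 2 of them were lost in 7 of 12 alternatives each, among them without B6 replicate 1 or 2 and without B6-13D2 replicate 2 or 3. At 18:37849360-37850298 the levels were 3.41 and 3.92 CPM in B6, 8.19 and 8.49 in B6-13D2, 4.37 and 10.1 in D2-13B6 and 11.8 and 9.89 in D2, where the B6 contrast was 1.21 ± 0.24 (adjusted p = 0.000271, edgeR) and held in 12 of 12 alternatives. Replicate 1 of D2-13B6 was the low one of its line there. In beta the Pcdhb2 exon was lower with the segment (-1.55, adjusted p = 0.0242), at no more than 1.4 CPM, and lost without replicate 2 of B6-13D2.

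The call of the D2 background was an intergenic region 58182 bp past Pcdhb22 (18:37575674-37576431), where both marks were called. H3K27ac held 3.66 and 1.22 CPM in D2-13B6, 0.278 and 0.455 in D2, 1.05 and 0.896 in B6 and 0.372 and 0.277 in B6-13D2. Replicate 1 of D2-13B6 was the highest sample. D2 was below D2-13B6 by a log2 fold change of -2.67 ± 0.51 (adjusted p = 0.00022, edgeR), in 11 of 11 alternatives. Among them, the fit without that replicate left a single summed sample of D2-13B6, so its spread came only from the other lines. H3K9me3 had the opposite order, with 7.20, 5.23 and 9.83 CPM in D2-13B6, 12.5 and 24.0 in D2, 16, 12.9 and 16.2 in B6 and 25.3 and 24.4 in B6-13D2. D2 exceeded D2-13B6 by 1.31 ± 0.36 (adjusted p = 0.0244, edgeR), lost in 4 of 10 alternatives, among them without D2 replicate 2 and without D2-13B6 replicate 2. In the B6 background the contrasts went the same ways without being called, at -1.54 for H3K27ac (adjusted p = 0.0605) and 0.72 for H3K9me3 (adjusted p = 0.294).

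Genes known to act on the arrays were read at their own starts, on a list of 27 that includes Ctcf, the cohesin subunits, Setdb1, Smchd1 and the DNA methyltransferases. Among the separate lines 24 were tested for H3K27ac, 11 higher in D2 and 2 lower (24.3% and 25% of all regions), with a median log2 fold change of 0.15. In the repeats 16 of 24 were higher in D2 than in B6 and 0 lower (median 0.44), 15 and 0 in D2 against B6-13D2 and 19 and 0 in D2-13B6 against B6. All regions gave 14.7% and 13.4%, 13.1% and 13.1%, and 17.2% and 13.1% in those contrasts. With library totals the list gave 15, 20 and 15 higher and 0 lower, with medians of 0.31, 0.38 and 0.34. The segment contrast of the B6 background called 0 and 0 (7.6% and 5.4% of all regions), or 0 and 4 with library totals, and that of the D2 background 0 and 1 (1.44% and 5.24%), or 1 and 1. H3K9me3 at these starts was tested for 1 gene in the separate lines, with 0 called, and for 17 in the repeats, where D2-13B6 against B6 called 2 higher and 1 lower (8.75% and 12.2% of all regions) and the other contrasts 0. Of 13 non-clustered protocadherins, genes of the wider family located elsewhere, H3K27ac was higher in D2 for 3 and lower for 1 among the 9 tested in the separate lines. Among the 13 tested in the repeats, 3 were higher and 1 lower in D2 than in B6 (2 and 1 with library totals), 4 and 0 in D2 against B6-13D2, 3 and 0 in D2-13B6 against B6, 3 and 1 in the segment contrast of the B6 background and 0 and 1 in that of the D2 background. A positive H3K27ac median in D2 against B6 of the repeats was shared by every gene list. It was 0.49 for the non-clustered protocadherins, 0.24 for naive, 0.39 for neural, 0.34 for endoderm or mesoderm and 1.53 for fibroblast markers.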

How the data were processed

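H3K9me3 and H3K27ac ChIP-seq of 34 mouse embryonic stem cell libraries was analysed from 4 deposited tables of raw read counts per region made by the authors. Per the submitters' processing notes, Trimmomatic 0.39, HISAT2 2.2.1, MACS 1.4.2, bedtools 2.9.2, edgeR and the build mm10 were used, with no roles given. That build is the B6 genome, and how well D2 reads align to it was not tested. Columns were matched to samples by library name, and 2 unmatched library columns were not used. Members and gene lists were chosen with earlier results of these data known. Each table was fitted whole with edgeR 4.0.16 in R 4.3.3 (quasi-likelihood test, TMM factors, filterByExpr at its limits of 10 counts and 15 in total), and two-sided p-values were adjusted over all tested regions (Benjamini-Hochberg, called under 0.05). The separate lines were compared as D2 minus B6, and the 4 repeated lines shared 1 fit per mark. Libraries were compared by chi-square over regions with at least 40 counts in a pair, and 4 H3K27ac pairs that differed by less than sampling noise were summed. CPM are counts scaled to the total of the tested regions with TMM factors, and these regions held 57.1% to 68.6% of the H3K9me3 counts in the separate lines, 61.7% to 73% in the repeats and at least 97.3% of the H3K27ac counts, so H3K9me3 CPM are larger than they would be on all counts. The code was tested on simulated data, with changes set in D2 at regions of at least 20 counts on average. Of 2-fold changes it recovered 41% in the H3K9me3 repeats and 54% in the H3K27ac repeats. In the separate lines it recovered 69% for H3K9me3 and 88% for H3K27ac. Genes are from GENCODE M21. Regions named are taken from the 2 highest per table and array, the 3 largest called changes per contrast and array (1 outside) and the gene starts of C-type and neighbouring genes, and others are given in counts or by gene. The alternatives were DESeq2 1.42.0, library totals over the tested regions, no filter, a mean of at least 20 counts, leaving out each library, a replicate block and no summed pairs, and totals over all regions, chosen after seeing the data. Leaving out the unsummed library of an H3K27ac line, or a library of an H3K9me3 line with 2, left a single sample of that line. The spread then came only from the other lines. Against a group with at most 3 counts in every library no fold is given. No sequence is printed.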

Additional observations from a re-analysis of the deposited data

Results flagged for a closer look

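At 4 of the 104 H3K27ac regions tested in the repeated libraries, the contrast of the chromosome 13 segment differed between the B6 and D2 backgrounds by the interaction test (edgeR, Benjamini-Hochberg). Over all regions 5.3% passed this test, so the share within the protocadherin stretch is not above that of the table.

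In the Pcdhgb7 exon (18:37752120-37752790) the interaction was 2.19 on the log2 scale (adjusted p = 0.0116, edgeR). The levels were 0.953 and 0.336 CPM in B6, 1.96 and 2.22 in B6-13D2, 1.32 and 1.39 in D2-13B6 and 0.945 and 0.568 in D2. Each background had its higher level in the congenic line. The call was kept in 14 of 16 alternatives and lost without replicate 3 of B6 and without replicate 2 of D2. DESeq2 gave no adjusted p (unadjusted p = 0.0074), and a mean of at least 20 counts left the region untested.

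The intron region 18:37666882-37667343, at -1840 bp from the Pcdhga2 start, had an interaction of -1.97 (adjusted p = 0.0332, edgeR), from 1.4 and 1.79 CPM in B6, 0.559 and 0.554 in B6-13D2, 1.32 and 0.721 in D2-13B6 and 1.17 and 1.71 in D2. It was kept in 10 of 16 alternatives and lost without B6 replicate 3, B6-13D2 replicate 2 or 3, D2-13B6 replicate 2 or D2 replicate 1 or 2. DESeq2 again gave no adjusted p (unadjusted p = 0.0299).

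The other 2 lay within Diaph1. At 18:37859607-37861236 the interaction was 1.06 (adjusted p = 0.000436, edgeR), kept in 18 of 18 alternatives, with mean levels of 19.0 CPM in B6, 31.2 in B6-13D2, 31.4 in D2-13B6 and 25 in D2. At 18:37877043-37878437 it was 0.79 (adjusted p = 0.0153, edgeR), with 12.9, 21.2, 25.8 and 24.7 CPM, kept in 16 of 18 alternatives and lost without B6 replicate 3 or D2 replicate 2. In both, the B6 line had the lowest mean.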

How the results depend on the processing

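None of the 136 calls, counted over regions and contrasts, had the opposite sign in an alternative that tested it, and 83 were lost in at least 1. The number of called regions moved by over 1.5 times as follows, and the cause was not tested except where fewer regions or libraries entered. With DESeq2 the H3K9me3 counts were 2 for the strain contrast of separate lines and 0 for the D2-background segment, D2 against B6, D2 against B6-13D2 and D2-13B6 against B6. For H3K27ac they were 16 in the separate lines and, in the repeats, 3 for the B6-background segment, 14 for D2 against B6, 9 for D2 against B6-13D2, 14 for D2-13B6 against B6 and 2 for the interaction. A mean of at least 20 counts left 16 and 23 H3K9me3 regions to test and 2 calls in the separate lines, 1 for the D2-background segment, 1 for D2 against B6, 3 for D2 against B6-13D2 and 2 for D2-13B6 against B6. No filter gave 0 for the H3K9me3 D2-background segment and 3 for D2 against B6. Library totals gave 2 for the H3K27ac D2-background segment. With no pair summed the H3K27ac counts were 19 and 7 for the segment in the B6 and D2 backgrounds and 14 for the interaction.

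Leaving out 1 library at a time gave 3 to 8 H3K9me3 calls in the separate lines and, in the repeats, 0 to 0 and 0 to 1 for the B6- and D2-background segment, 1 to 5 for D2 against B6, 0 to 6 for D2 against B6-13D2, 4 to 11 for D2-13B6 against B6 and 0 to 0 for the interaction. For H3K27ac it gave 19 to 24 in the separate lines and, in the same order, 5 to 8, 1 to 3, 15 to 24, 10 to 17, 18 to 29 and 1 to 15.

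Replicate numbers did not pair the samples: the correlation of same-numbered deviations was at most 0.158 and mostly near 0. A replicate block gave 7 H3K9me3 and 25 H3K27ac calls in the separate lines and 1 in place of 2 for the H3K9me3 D2-background segment. In the H3K27ac repeats the block with no pair summed gave 19, 7, 29, 22, 27 and 13 calls in the order above. Among single named regions, 27 of 46 lost their call under DESeq2 and 7 of 59 with library totals. Totals over all regions, chosen after seeing the data, gave 1 call for the H3K9me3 and 2 for the H3K27ac D2-background segment, and within 1.5 times the number for the other contrasts. Tested H3K9me3 regions of the separate lines held 9.17 to 31.8 counts per library on average, and the part of depth in the number of calls was not tested.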
